A study of Rattus norvegicus with 172 samples.

Results

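The spinal cord just below a complete, untreated transection was compared between 90 and 20 days after the operation. Adult female Wistar rats, to which the labels give an age of 2 months in every group used here, lost a short length of cord at thoracic level T7-8. The animals compared between the days (the lesion control arm) received nothing in the gap. The block of cord next to the gap on its tail side, dura and meninges included, was taken for RNA. The groups were therefore lesion control caudal cord at day 90 (3 arrays), the same at day 20 (3 arrays) and, for orientation, normal cord of unoperated rats (3 arrays), whose segment the labels used here do not give. These 6 injured-cord arrays were picked by their titles, out of 172 in the series. Caudal arrays of rats given a chitosan tube with neurotrophin-3 (NT-3) or an empty tube were in the same fit. They and the rostral block of the lesion control arm were also used for later comparisons. Each injured-cord array carried RNA pooled from 4 animals, so the spread between arrays is a spread between pools, and day after injury cannot be told apart from the age of the animals or from anything else that differed between the operations.

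After a transection the caudal cord loses its input from the brain, the cut axons break down, and microglia and blood-borne macrophages clear the debris while astrocytes and fibroblasts build a scar around the gap. Glia, fibroblasts and immune cells divide in the first days, and many injury genes stay high for weeks. Neurons below the gap survive but lose synapses from descending axons, and their circuits reorganise over months. Comparing a late with an intermediate time shows which of these programmes were still moving once the acute phase had passed.

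Expression was measured on Affymetrix Rat Genome arrays as log2 RMA values, where 1 unit is a 2-fold difference and the brightest probe sets reach 15. Of 14218 genes with a probe set of their own, 11479 reached a mean of 6.55 in at least 1 group of the fit and were tested with limma, with p-values adjusted over all of them. The caudal blocks carried the markers of spinal cord. The arrays' means over 5 neuronal markers were 11.10 to 11.36 at day 90 and 10.86 to 11.05 at day 20, and over 5 astrocyte markers they were 10.93 to 11.05 at day 90 and 10.93 to 11.02 at day 20. Of the neuronal markers Syt1 and of the motor neuron markers Isl1 were dim. Day 90 replicate 2 stood apart: it correlated at 0.9859 to 0.9887 with the other day 90 arrays, and at 0.9696 to 0.9776 with those of day 20, and several counts below are given without it. In bulk tissue fewer cells of a type and less RNA per cell cannot be told apart. The small number of arrays limits the precision of every value.

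Between day 20 and day 90 more genes fell than rose. At an adjusted p under 0.05, 517 of 11479 genes (4.5%) differed: 382 were lower (3.33%) and 135 higher (1.18%) at day 90. The falls were also larger, with a median of -0.56 against 0.42 for the rises, and 45 falls (0.392% of tested genes) but only 2 rises (Dao and Myl2; 0.0174%) reached 2-fold. Of the called genes, 377 of the 382 falls and 132 of the 135 rises had no overlap between day 90 and day 20 arrays. A lack of overlap therefore adds little to a call. Over all tested genes the median was -0.03, and 55.9% of them were lower at day 90. The counts of called genes depend on single arrays. Without day 90 replicate 2, 99 genes passed (15 higher, 84 lower), without day 20 replicate 1, 163 (27 higher, 136 lower), and without day 20 replicate 3, 225 (50 higher, 175 lower), and without day 90 replicate 1 the rises came to 87; a second quantile normalization gave 193 higher and 259 lower, so that 42.7% of the calls were rises in place of 26.1%.

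**Figure D1:**
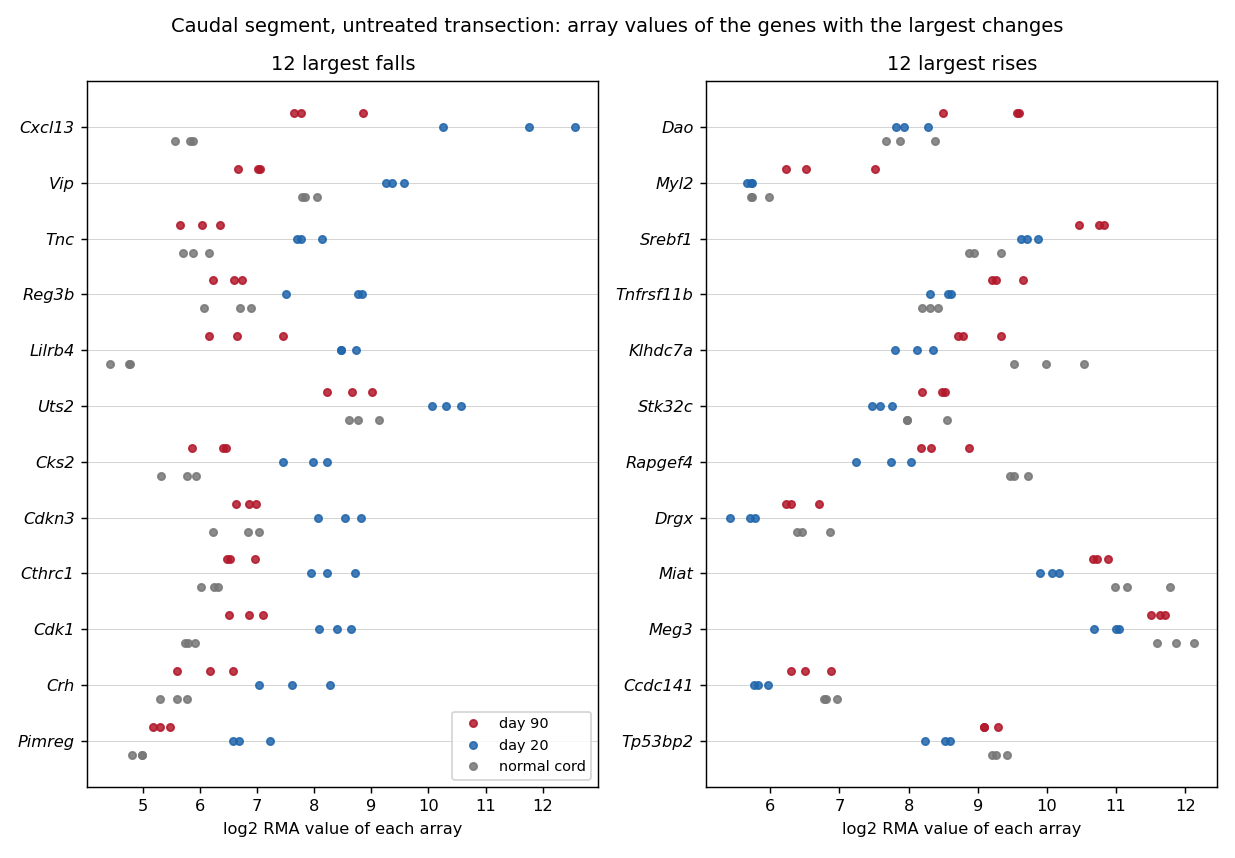
Log2 RMA value of each array (x axis) for the 12 genes with the largest falls (left) and the 12 with the largest rises (right) among called genes whose day 90 and day 20 arrays do not overlap. Day 90 is red, day 20 blue and normal cord grey; Cxcl13 spans 7.65 to 8.86 at day 90 and 10.25 to 12.57 at day 20, while the rises on the right are smaller.

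The cell cycle list held the most calls of all the lists used here. All 25 tested members of a list of cyclins, mitotic kinases and replication factors were lower at day 90, with a median of -0.57, and in 24 of them all day 90 arrays lay below all day 20 arrays, as they did in 18.8% of all tested genes. Of the 25, 17 passed the test and none rose. Cdk1, the kinase that drives entry into mitosis, had 7.11, 6.50 and 6.85 at day 90 and 8.65, 8.40 and 8.09 at day 20. The highest day 90 array, 7.11, lay well below the lowest day 20 array, 8.09. Its level fell by 1.56 ± 0.22 (SE; limma, adjusted p = 1.69e-05), a 2.95-fold difference. Ccnb2, the mitotic cyclin B2, had 6.74, 6.47 and 6.48 at day 90 and 8.22, 7.85 and 7.69 at day 20 (-1.36 ± 0.20, adjusted p = 1.69e-05). Mki67, whose product Ki-67 coats chromosomes of dividing cells, had 6.41, 6.11 and 6.46 at day 90 and 7.84, 7.52 and 7.45 at day 20 (-1.28 ± 0.25, adjusted p = 0.00137). Neither gene's days overlapped. Ube2c, the ubiquitin-conjugating enzyme of the anaphase-promoting complex, fell by 1.37 ± 0.27 (adjusted p = 0.00128).

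Among the other mitotic regulators Bub1 and Bub1b, kinases of the spindle checkpoint, fell by 1.24 and 1.04, Top2a, the topoisomerase that untangles chromosomes, by 1.10, and Kif11, the motor that separates spindle poles, by 0.92, while Ccnb1, cyclin B1, fell by 0.54, Mad2l1, a spindle checkpoint protein, by 0.59 and Cdc20, an activator of the anaphase-promoting complex, by 0.45. Outside the list the same stage was seen in Cks2, a subunit of cyclin-dependent kinases (-1.65 ± 0.30, adjusted p = 0.000591), in Cdkn3, a phosphatase that acts on them (-1.65 ± 0.30, adjusted p = 0.000501), and in the mitotic regulator Pimreg (-1.51 ± 0.25, adjusted p = 0.000147). Among replication factors, Pcna, the sliding clamp of DNA polymerase and the brightest member, had 12.40, 12.34 and 12.49 at day 90 and 12.75, 12.61 and 12.70 at day 20 (-0.28 ± 0.07, adjusted p = 0.022), Mcm3 fell by 0.54, and Mcm2, Mcm5 and Mcm6 differed by -0.46 to -0.37 without passing (adjusted p 0.0648 to 0.113). Tk1, the thymidine kinase of DNA synthesis, which is not in the list, fell by 0.86. Second probe sets of Kif11 (-0.15), Tk1 (-0.32) and Cdc20 (-0.35) did not pass, while those of Ccnb1 (-1.05) and Top2a (-0.64) did. Pcna lost its call without day 90 replicate 1 or 2 and without day 20 replicate 1 or 3. The G1 cyclin Ccnd1 averaged 10.50 ± 0.16 at day 90 and 10.74 ± 0.02 at day 20 (SD, n = 3 each) and did not pass. Without day 90 replicate 2, 10 of the 25 members passed, and without day 20 replicate 1, 11; Cdk1, Ccnb2, Mki67, Ube2c, Cks2, Cdkn3 and Pimreg passed with any of the 6 arrays left out.

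Because these genes moved together, the letters before their starts are shown for 3 of the 4 listed genes with the largest falls, as RefSeq gives them in build GRCr8; the table used here has no entry for Ube2c. Each run is the 250 bases before the start on the gene's own strand, 5′ to 3′: Ccnb2 at chr8:79981659-79981908 (minus strand), Cdk1 at chr20:19265043-19265292 (plus strand) and Mki67 at chr1:199952594-199952843 (minus strand). Capitals mark TTTGAA, the letters of the cell cycle genes homology region (CHR), and CCAAT, each on either strand (reverse complements TTCAAA and ATTGG).
Ccnb2: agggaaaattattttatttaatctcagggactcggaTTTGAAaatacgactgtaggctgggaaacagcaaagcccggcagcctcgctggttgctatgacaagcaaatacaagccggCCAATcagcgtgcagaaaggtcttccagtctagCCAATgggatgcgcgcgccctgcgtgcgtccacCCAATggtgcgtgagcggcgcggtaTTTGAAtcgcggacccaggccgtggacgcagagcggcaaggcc
Cdk1: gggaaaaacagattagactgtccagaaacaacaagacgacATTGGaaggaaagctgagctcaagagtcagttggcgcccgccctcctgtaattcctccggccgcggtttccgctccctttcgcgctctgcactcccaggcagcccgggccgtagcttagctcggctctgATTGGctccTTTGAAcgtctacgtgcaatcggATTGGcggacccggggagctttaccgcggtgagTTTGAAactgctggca
Mki67: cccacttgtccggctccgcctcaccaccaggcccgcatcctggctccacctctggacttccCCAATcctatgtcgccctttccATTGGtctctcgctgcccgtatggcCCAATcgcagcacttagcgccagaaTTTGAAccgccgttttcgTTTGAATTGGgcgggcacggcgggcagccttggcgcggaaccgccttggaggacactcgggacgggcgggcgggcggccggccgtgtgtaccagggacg
The Ccnb2 run holds 3 CCAAT on the gene's strand and 2 CHR, that of Cdk1 holds 3 ATTGG and 2 CHR, and that of Mki67 holds both orientations of CCAAT and 2 CHR, of which the second shares 1 base with an ATTGG. Of the 15 called cell cycle genes with such a window, 6 held CHR, 12 held CCAAT and 6 held both. Of all 20 tested list members with a window, called or not, 7 held CHR, 15 held CCAAT and 6 held both. Among the 9556 windows of all tested genes the shares were 9.9%, 35.5% and 3.9%. These are matches of letters in a fixed window and were not tied to any measurement of binding.

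Falls were also called among chemokines and the receptors of phagocytes. Cxcl13, the chemokine that draws B cells, showed the largest fall of any tested gene: 8.86, 7.77 and 7.65 at day 90 and 12.57, 10.25 and 11.76 at day 20. The day 20 arrays were themselves spread over more than 2 log2 units, yet all lay above the day 90 arrays. The difference was -3.43 ± 0.51 (10.8-fold, adjusted p = 2.44e-05), and day 90 still lay 2.34 ± 0.51 above normal cord (5.76). Of 24 tested cytokines and chemokines 21 were lower, with a median of -0.53, but only 4 passed: Cxcl13, the interferon-induced Cxcl11 (-1.31 ± 0.33, adjusted p = 0.013), Il1b, the inflammatory cytokine interleukin-1β (-1.20 ± 0.36, adjusted p = 0.0396), and Cxcl16 (-0.88 ± 0.18, adjusted p = 0.00216). Ccl2, which recruits monocytes, averaged 7.61 ± 0.73 at day 90 and 8.40 ± 0.29 at day 20, with overlapping arrays and no call. The chemokine Cxcl14 averaged 12.02 ± 0.40 at day 90 and 11.86 ± 0.21 at day 20, and did not pass either. Without day 90 replicate 2, Cxcl13 alone of this list passed, and without day 20 replicate 3, 2 genes did. With each of the 6 arrays left out in turn, Il1b lost its call in 5 fits and Cxcl11 in 2.

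Among phagocyte genes the inhibitory receptor Lilrb4 had 7.46, 6.15 and 6.65 at day 90 and 8.73, 8.46 and 8.46 at day 20 (-1.80 ± 0.52, adjusted p = 0.0329). The Fc receptors Fcgr3a and Fcgr2b, which bind antibody-coated material, fell by 0.69 and 0.52, and Spp1, the secreted matrix protein osteopontin, by 0.68. These 4 of 20 tested members passed, none rose, and the median was -0.49. Other phagocyte genes stayed bright without a call. Gpnmb, a glycoprotein of lipid-laden macrophages, averaged 14.03 ± 0.11 at day 90 and 13.81 ± 0.15 at day 20, against 9.12 in normal cord, and Apoe, the lipid carrier, averaged 14.59 ± 0.10 at day 90 and 14.49 ± 0.06 at day 20. No phagocyte gene passed without day 90 replicate 2, nor without day 20 replicate 1, and 1 passed without day 20 replicate 3.

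The 12 tested microglial genes all lay lower at day 90 (median -0.31), and 3 passed. Tmem119, a surface marker of resident microglia, had 8.19, 8.43 and 8.19 at day 90 and 8.95, 9.29 and 9.17 at day 20. The groups did not overlap, and the fall of 0.87 ± 0.15 (adjusted p = 0.000273) passed whichever array was left out. Aif1, the calcium-binding protein Iba1, fell by 0.62 and Itgam, the complement receptor subunit CD11b, by 0.56; with the replicate numbers as a block the adjusted p of Aif1 was 0.0532, and Tmem119 alone of the 12 passed without day 90 replicate 2 or 3 and without day 20 replicate 1 or 3. Ctss, a lysosomal protease and the brightest member, differed by -0.01 ± 0.07. Of 11 tested complement genes 3 passed. C3, the central component, had 10.21, 10.18 and 10.17 at day 90 and 12.13, 11.21 and 11.64 at day 20 (-1.47 ± 0.25, limma, adjusted p = 0.000217). The day 90 values were close together, 0.38 above normal cord, and all below those of day 20. C5ar1, the receptor for C5a, fell by 0.87 and C1qc, a chain of C1q, by 0.79, and C3 alone passed without day 90 replicate 2 and without day 20 replicate 1 or 3. C1qa and C1qb, the other chains of C1q, differed by -0.43 and -0.57 and missed the threshold (adjusted p = 0.055 and 0.0527), and without day 90 replicate 1 the calls numbered 5.

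Antigen presentation genes gave calls in class II only, 2 of 11 tested (18.2%), against 4.5% of all tested genes. The 11 tested class II genes all lay lower (median -0.46), and RT1-DMa and RT1-DMb, which load peptides on class II molecules, passed with -0.64 and -0.67 (adjusted p = 0.0058 and 0.0013); neither passed without day 90 replicate 2, and 1 did without day 20 replicate 1. The brightest class II members, Cd74, the invariant chain, and RT1-Da, differed by -0.46 ± 0.29 and -0.49 ± 0.28 without passing. None of the 13 class I genes passed, with 12 lower and a median of -0.23. B2m, the shared light chain, averaged 13.98 ± 0.11 at day 90 and 14.10 ± 0.03 at day 20. The immunoproteasome subunits Psmb8, Psmb9 and Psmb10 differed by -0.48 to -0.46, the peptide transporter subunits Tap1 and Tap2 and the loading factor Tapbp by -0.29 to -0.19, and the heavy chains RT1-CE10, RT1-CE12, RT1-CE16, RT1-M3-1, RT1-N3 and RT1-S3 by -0.37 to 0.02. None of 21 interferon response genes passed (median -0.26). The 7 tested neutrophil genes all lay lower (median -0.82). In 6 of them all day 90 arrays lay below day 20, as in 18.8% of all tested genes. Csf3r, the receptor for granulocyte colony-stimulating factor, alone passed (-0.82 ± 0.19, limma, adjusted p = 0.0058). Its call went without day 90 replicate 2 or day 20 replicate 1. The brighter S100a8 and S100a9 averaged 8.40 ± 0.81 and 9.43 ± 0.77 at day 90. At day 20 they averaged 10.26 ± 0.38 and 11.40 ± 0.48, without passing (limma, adjusted p = 0.142 and 0.107). The 4 tested red cell genes lay lower without a call, each with all day 90 arrays below day 20, as in 18.8% of all tested genes: Hbb, the β-globin gene, averaged 14.25 ± 0.07 at day 90 and 14.53 ± 0.07 at day 20. The array means over 3 erythrocyte markers were 10.10 to 10.32 at day 90 and 10.55 to 11.22 at day 20, and the part of blood in the immune genes' falls was not tested.

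Scar and matrix genes fell in a few members with large differences. Tnc, the matrix glycoprotein tenascin-C made by reactive astrocytes and fibroblasts, had 6.35, 5.64 and 6.03 at day 90 and 8.14, 7.69 and 7.77 at day 20. The arrays did not overlap, the difference was -1.86 ± 0.35 (adjusted p = 0.000702), and the day 90 mean of 6.01 was 0.10 above normal cord. Cthrc1, a secreted collagen-repeat protein of activated fibroblasts, fell by 1.64 ± 0.30 (adjusted p = 0.000632). Of 28 fibroblast and fibrillar collagen genes 27 lay lower (median -0.53), and 3 passed. Col3a1, collagen III, had 10.94, 10.35 and 11.72 at day 90 and 12.16, 11.77 and 12.59 at day 20 (-1.17 ± 0.32, adjusted p = 0.0227). Its day 90 replicate 3 came just below the lowest day 20 array. Lox, the enzyme that cross-links collagen, differed by -1.19 ± 0.37 (adjusted p = 0.0487) with overlapping arrays, and the matricellular protein Thbs2 by -0.64 ± 0.15. The bright Dcn, the proteoglycan decorin, averaged 12.59 ± 0.21 at day 90 and 12.66 ± 0.56 at day 20. No fibroblast gene passed without day 90 replicate 2 or without day 20 replicate 3, 1 passed without day 20 replicate 1 or day 90 replicate 1, and 6 without day 90 replicate 3.

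Timp1, the protease inhibitor made by reactive astrocytes and fibroblasts, had 10.88, 9.82 and 10.79 at day 90 and 11.78, 11.70 and 11.64 at day 20, with no overlap (-1.21 ± 0.24, adjusted p = 0.00114). Serpina3n, a serine protease inhibitor of reactive astrocytes, had 5.07, 4.58 and 4.27 at day 90 and 5.96, 5.82 and 6.06 at day 20, both below the dim threshold of 6.55 (-1.31 ± 0.31, adjusted p = 0.00791). With the lipid receptor S1pr3 (-0.52) these were 3 of 15 reactive astrocyte genes. The intermediate filaments that define the astrocyte scar did not pass: Gfap averaged 14.26 ± 0.03 at day 90 and 14.21 ± 0.03 at day 20, near the top of the scale, and Vim averaged 13.37 ± 0.17 at day 90 and 13.69 ± 0.19 at day 20 (adjusted p = 0.0616). Without day 90 replicate 2 none of the 15 passed. Of 21 matrix proteases and inhibitors, Timp1, the protease Adamts9 (-0.75 ± 0.14, adjusted p = 0.000854) and Mmp19 (-0.74) fell and Serpine2, the inhibitor protease nexin 1, rose by 0.37; Adamts9 alone passed without day 90 replicate 2, and Serpine2 also lost its call without day 90 replicate 1 or any of the day 20 arrays. In the basement membrane list Lama1, a laminin chain (-0.63), was the 1 call of 14 (13 lower, median -0.45) and lost it without day 90 replicate 1 or 2 or any of the day 20 arrays. Among 25 proteoglycan and guidance genes Tnc and Chst11, a chondroitin sulfotransferase (-0.27), fell, and the median was -0.07; Tnc passed with any array left out, and Chst11 lost its call with any 1 of the 6 left out.

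Some peptide genes of neurons were among the larger falls, but in the list of peptides and receptors of spinal neurons Vip was the 1 call of 17, with 8 higher, 9 lower and a median of 0. Vip, vasoactive intestinal peptide, had 7.05, 7.02 and 6.67 at day 90 and 9.26, 9.37 and 9.57 at day 20, against 7.83, 7.79 and 8.05 in normal cord. The days were more than 2 log2 units apart in every pair of arrays, and day 90 was below normal cord. Vip differed by -2.49 ± 0.30 (5.6-fold, adjusted p = 1.02e-06) between the days and by -0.98 ± 0.30 (adjusted p = 0.0082) from normal cord at day 90. Uts2, the motor neuron peptide urotensin 2, had 9.01, 8.66 and 8.22 at day 90 and 10.57, 10.07 and 10.30 at day 20 (-1.68 ± 0.29, adjusted p = 0.000231), and differed from normal cord by -0.21 at day 90. Crh, corticotropin-releasing hormone, had 6.57, 6.18 and 5.60 at day 90 and 7.03, 7.61 and 8.28 at day 20 (-1.52 ± 0.35, adjusted p = 0.00698), and lost its call without day 20 replicate 3 or day 90 replicate 3. Reg3b, a secreted protein induced in injured neurons, had 6.73, 6.22 and 6.59 at day 90 and 8.76, 8.83 and 7.50 at day 20 (-1.85 ± 0.31, adjusted p = 0.00016). None of the 4 overlapped between the days, which was a condition for being named among the largest falls. The brightest peptide genes, Npy, neuropeptide Y, and Penk, proenkephalin, differed by -0.72 ± 0.37 and 0.05 ± 0.17 without passing.

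Of 23 genes linked to axon injury and regeneration 5 fell and none rose (19 lower, median -0.18). Beside Vip and Reg3b these were Sprr1a, a protein that accompanies axon outgrowth, with 6.24, 6.20 and 6.20 at day 90 and 7.26, 7.37 and 6.94 at day 20 (-0.98 ± 0.19, adjusted p = 0.000854), the growth cone protein Gap43, with 11.99, 11.83 and 12.09 at day 90 and 12.48, 12.52 and 12.41 at day 20 (-0.50 ± 0.11, adjusted p = 0.00336), and the cyclic AMP responsive regulator Crem (-0.38 ± 0.09, adjusted p = 0.00877). In each the days did not overlap. The bright members Stmn2 and Hspb1 differed by -0.02 ± 0.15 and -0.12 ± 0.19. Gap43 lost its call without day 90 replicate 2, and Crem without day 20 replicate 3 or day 90 replicate 1. Another Crem probe set passed (-0.38), while those at -0.30, -0.29 and -0.26 did not. Among 12 neurotrophins and receptors Bdnf, brain-derived neurotrophic factor, averaged 6.10 ± 0.13 at day 90 and 6.73 ± 0.16 at day 20 (-0.63 ± 0.18, adjusted p = 0.0334), a call that went when any 1 of the 6 arrays was left out, and Gfra1, the GDNF receptor, had 8.74, 8.75 and 8.89 at day 90 and 9.17, 9.27 and 9.34 at day 20 (-0.47 ± 0.09, adjusted p = 0.000854), which held with any array left out. Ntrk2, the BDNF receptor and a bright member, averaged 11.64 ± 0.12 at day 90 and 11.48 ± 0.05 at day 20, without a call.

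The rises were smaller. Srebf1, the transcription factor that switches on fatty acid synthesis genes, had 10.76, 10.46 and 10.82 at day 90 and 9.71, 9.62 and 9.87 at day 20, against 8.88, 9.34 and 8.94 in normal cord. The 3 groups did not overlap. The rise of 0.95 ± 0.13 (1.93-fold, adjusted p = 7.65e-06) passed with any array left out, and a second Srebf1 probe set rose by 0.87 ± 0.13. Such agreement was not general. Of 150 other probe sets of called genes 140 had the same sign and 9 the opposite one, and only 24 passed the same way. Scd, stearoyl-CoA desaturase, fell, with 7.80 ± 0.10 at day 90 and 8.23 ± 0.08 at day 20, against 10.62 in normal cord (-0.43 ± 0.13, adjusted p = 0.0464, and adjusted p = 0.0522 with the replicate numbers as a block). Acly, ATP citrate lyase, differed by -0.03 ± 0.10. The call of Scd went when any 1 of the 6 arrays was left out. Of 14 fatty acid genes Srebf1 and Scd were the 2 calls (median 0.13), and of 17 cholesterol synthesis genes Ebp, a sterol isomerase, alone passed (-0.46 ± 0.12, adjusted p = 0.0226), but not without day 90 replicate 1 or 2 or day 20 replicate 1 or 3.

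Dao, D-amino acid oxidase, which breaks down D-serine, had the largest rise among the called genes. It had 9.57, 9.59 and 8.50 at day 90 and 7.93, 8.28 and 7.82 at day 20 (1.21 ± 0.28, adjusted p = 0.00624). Its day 90 replicate 3 was just above the highest day 20 array, and the call went without day 90 replicate 1 or 2. Tnfrsf11b, the decoy receptor osteoprotegerin, had 9.26, 9.66 and 9.21 at day 90 and 8.62, 8.31 and 8.57 at day 20 (0.88 ± 0.21, adjusted p = 0.00839). Rapgef4, the cyclic AMP-activated exchange factor Epac2, had 8.18, 8.88 and 8.33 at day 90 and 7.24, 8.04 and 7.75 at day 20 (0.79 ± 0.21, adjusted p = 0.0193). The long non-coding RNAs Meg3 and Miat each rose by 0.71. Meg3 averaged 11.62 ± 0.10 at day 90 and 10.91 ± 0.20 at day 20. Klhdc7a rose by 0.85 (adjusted p = 0.0183) and Ccdc141 by 0.71 (adjusted p = 0.0135), and neither passed without day 90 replicate 2 or day 20 replicate 1 or 3. Stk32c, a protein kinase, and Tp53bp2, which binds p53, rose by 0.79 and 0.70 and passed with any array left out; Tnfrsf11b, Rapgef4, Meg3 and Miat did not pass without day 90 replicate 2, nor did Rapgef4 without day 20 replicate 1 or Meg3 without day 20 replicate 3.

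Neuronal lists gave few calls in number, and their medians lay between -0.01 and 0.32. The calls made up 11.1% of the general neuronal list, 5.88% of the glutamate list and 7.69% of the inhibitory list. Of all tested genes 4.5% passed. Of 18 general neuronal genes 15 were higher (median 0.23), Gap43, given above, was its 1 fall, and Mapt, the axonal protein tau, rose, with 11.15, 11.30 and 11.19 at day 90 and 10.71, 10.84 and 10.76 at day 20 (0.44 ± 0.12, adjusted p = 0.0253), without overlap. Among 17 glutamate receptor and postsynaptic genes Gria1, an AMPA receptor subunit, passed with 6.66, 6.61 and 6.71 at day 90 and 5.97, 6.34 and 5.82 at day 20 (0.62 ± 0.15, adjusted p = 0.013; median of the list 0.23). Among 13 genes of inhibitory transmission Gphn, which anchors glycine and GABA receptors, passed with 9.81, 10.00 and 9.66 at day 90 and 9.42, 9.44 and 9.40 at day 20 (0.40 ± 0.11, adjusted p = 0.0193; median 0.23). None of 11 sodium and potassium channel genes (median 0.32) and none of 15 synaptic vesicle genes (median 0.19) passed. Nor did any of 10 motor neuron and cholinergic genes (4 higher, 5 lower, median -0.01) or of 5 sensory ganglion genes (3 higher, 2 lower, median 0). Chodl, a motor neuron marker, averaged 11.47 ± 0.08 at day 90 and 11.12 ± 0.07 at day 20, and Nefl, the light neurofilament, averaged 13.73 ± 0.21 at day 90 and 13.43 ± 0.06 at day 20, both without a call. Slc12a5, the chloride exporter KCC2 that keeps inhibition inhibitory, averaged 11.73 ± 0.17 at day 90 and 11.29 ± 0.22 at day 20, without overlap but short of the threshold (0.44 ± 0.16, adjusted p = 0.1), against 12.38 in normal cord. Mapt, Gria1 and Gphn all lost their calls without day 20 replicate 1 or 3, and without day 90 replicate 2, which correlated least with the day 20 arrays.

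Other lists had few calls in number, where 4.5% of all tested genes passed. No call came from 16 myelin genes (median 0.06; Mbp 14.70 ± 0.06 at day 90 and 14.63 ± 0.02 at day 20) or 26 mitochondrial genes (median -0.05). The 12 positional Hox genes gave no call with a median of 0.25. In vessels the tight junction gene Cldn5 (0.41 ± 0.13, adjusted p = 0.0491, with overlapping arrays) and the pericyte potassium channel gene Kcnj8, with 7.28, 7.29 and 7.13 at day 90 and 6.69, 6.71 and 6.66 at day 20 (0.55 ± 0.12, adjusted p = 0.00384), rose, each the 1 call of its list (23 endothelial genes with a median of 0.03 and 10 pericyte genes with a median of -0.10). Kcnj8 passed with any array left out and Cldn5 did not. Of 17 astrocyte genes (median 0.19) Slc7a10, a D-serine and alanine transporter of astrocytes, alone rose, by 0.69 (adjusted p = 0.0337), a call that went without day 90 replicate 2 or any of the day 20 arrays, and S100b, a calcium-binding protein of astrocytes, averaged 14.21 ± 0.06 at day 90 and 14.02 ± 0.01 at day 20 without passing. In the clock list Per3 rose by 0.53, a call that went when any 1 of the 6 arrays was left out, and Nfil3 fell by 0.58, which held with any array left out; the hour of dissection is not given in the labels used here. Skeletal muscle RNA varied between the day 90 blocks: Myl2, a muscle myosin light chain and the only called gene of 12 tested, had 7.51, 6.52 and 6.23 at day 90 and 5.67, 5.74 and 5.72 at day 20 (1.04 ± 0.26, adjusted p = 0.0112; not without day 90 replicate 1 or day 20 replicate 1), and the means over 5 muscle markers were 5.89 to 6.80 at day 90 and 5.55 to 5.82 at day 20, with Ckm and Tnnt3 dim on both days. Its part in other results was not tested.

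Several lists for cell types and stress had no call at all. Of all tested genes 55.9% were lower at day 90, and several of the shares below are near that. The 12 meningeal genes were all lower (median -0.48), among them Igfbp2, an IGF-binding protein, with 11.08 ± 0.66 at day 90 and 11.68 ± 0.13 at day 20. Of 26 IGF and growth factor genes 15 were lower (median -0.10), and Igf1, insulin-like growth factor 1, averaged 11.18 ± 0.43 at day 90 and 11.85 ± 0.18 at day 20, against 9.34 in normal cord. Of 16 immediate early genes 12 were lower (median -0.14), with the transcription factor gene Fos at 10.80 ± 0.07 at day 90 and 10.98 ± 0.41 at day 20. Of 25 genes of heat shock and oxidative stress 16 were lower (median -0.10), of 12 neural progenitor genes 7 (median -0.14), of 9 oligodendrocyte precursor genes 6 (median -0.11), of 9 Schwann cell genes 5 (median -0.16) and of 7 lymphocyte genes 6 (median -0.28). Fabp7, the fatty acid-binding protein of progenitors and glia, averaged 13.53 ± 0.08 at day 90 and 13.66 ± 0.05 at day 20. Both tested adipocyte genes missed the threshold as well.

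**Figure D2:**
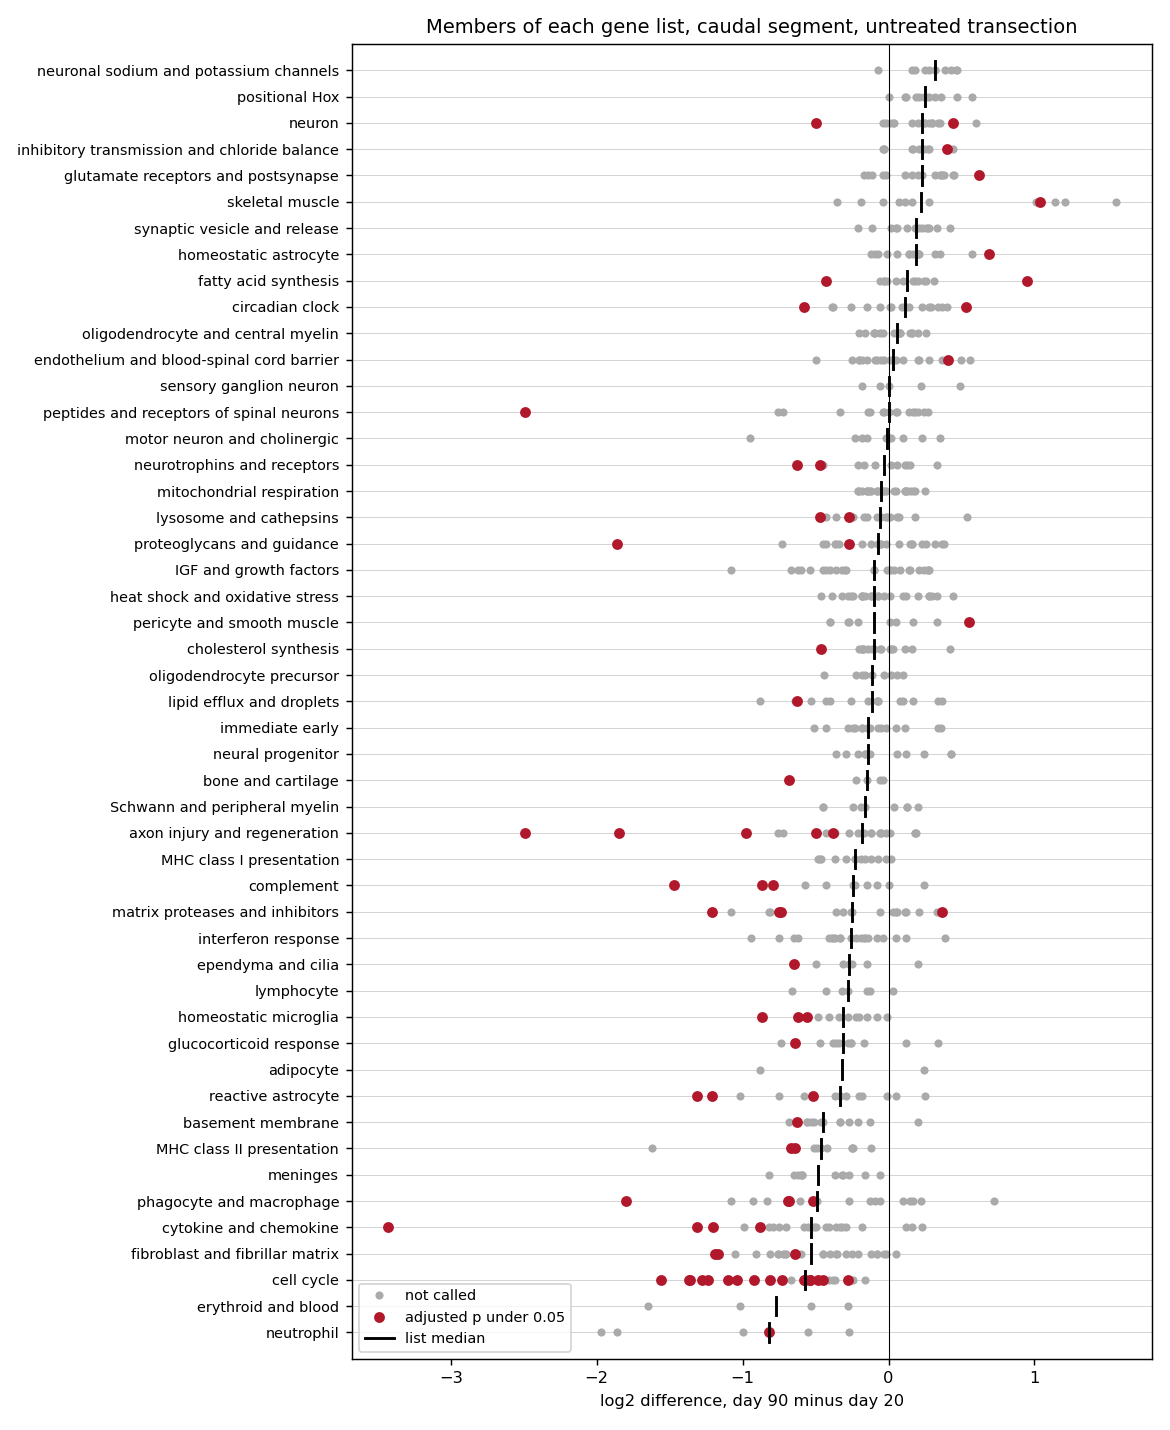
Log2 difference, day 90 minus day 20 (x axis), of every tested member of each gene list, ordered by the list's median (black bar); red points passed at an adjusted p under 0.05 and grey points did not. The cell cycle list has 17 red points, all left of 0, while the neuronal lists have medians between -0.01 and 0.32 with 1 or no rise each.

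The other days of the same arm place both times in a longer course. Cdk1 averaged 5.81 in normal cord, 7.60 at day 1, 10.46 at day 3, 8.27 at day 10, 8.38 at day 20, 7.82 at day 30, 6.76 at day 60 and 6.82 at day 90. The means at days 60 and 90 were close, and the difference between days 90 and 60 was 0.06 (adjusted p = 0.884). Vip (6.93 at day 60, 6.91 at day 90), Cxcl13 (7.89 and 8.09) and Srebf1 (10.69 and 10.68) were likewise near their day 90 level at day 60. Over all tested genes 431 (3.75%) passed between days 90 and 60, 2523 (22%) between days 60 and 20 and 517 (4.5%) between days 90 and 20. These comparisons share arrays, so the counts are given side by side only. Tnc, with 7.29 at day 30, 6.68 at day 60 and 6.01 at day 90, had no such plateau in its means. The lists also differed in course. From day 20 the median of the general neuronal list changed by -0.33 to day 60 and by 0.23 to day 90. Synaptic vesicle genes gave -0.23 and 0.19, phagocyte genes -0.03 and -0.49, and cell cycle genes -0.41 and -0.57.

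Against normal cord the members ended at different places. Of the 25 cell cycle genes 11 were still above normal cord at day 90 and 21 at day 20, where 18.7% and 25.7% of all tested genes were above; the 2 comparisons share the normal cord arrays. Cdk1 at day 90 was 1.01 ± 0.22 above normal cord (adjusted p = 0.000339) and Timp1 2.23 ± 0.24 above (adjusted p = 1.01e-10). C3, Tnc, Uts2, Reg3b, Sprr1a and Gap43 did not differ from normal cord beyond the threshold at day 90, with differences of -0.21 to 0.38. Vip and Bdnf (-0.74, adjusted p = 0.000987) had fallen below it, and Srebf1 stood 1.63 ± 0.13 above. Mapt, Gria1, Gphn and Meg3 differed from normal cord by -0.25 to -0.12 at day 90 without passing, whereas Rapgef4 (-1.11 ± 0.21, adjusted p = 2.97e-05) and Klhdc7a (-1.07, adjusted p = 0.000142) stayed below it.

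**Figure D3:**
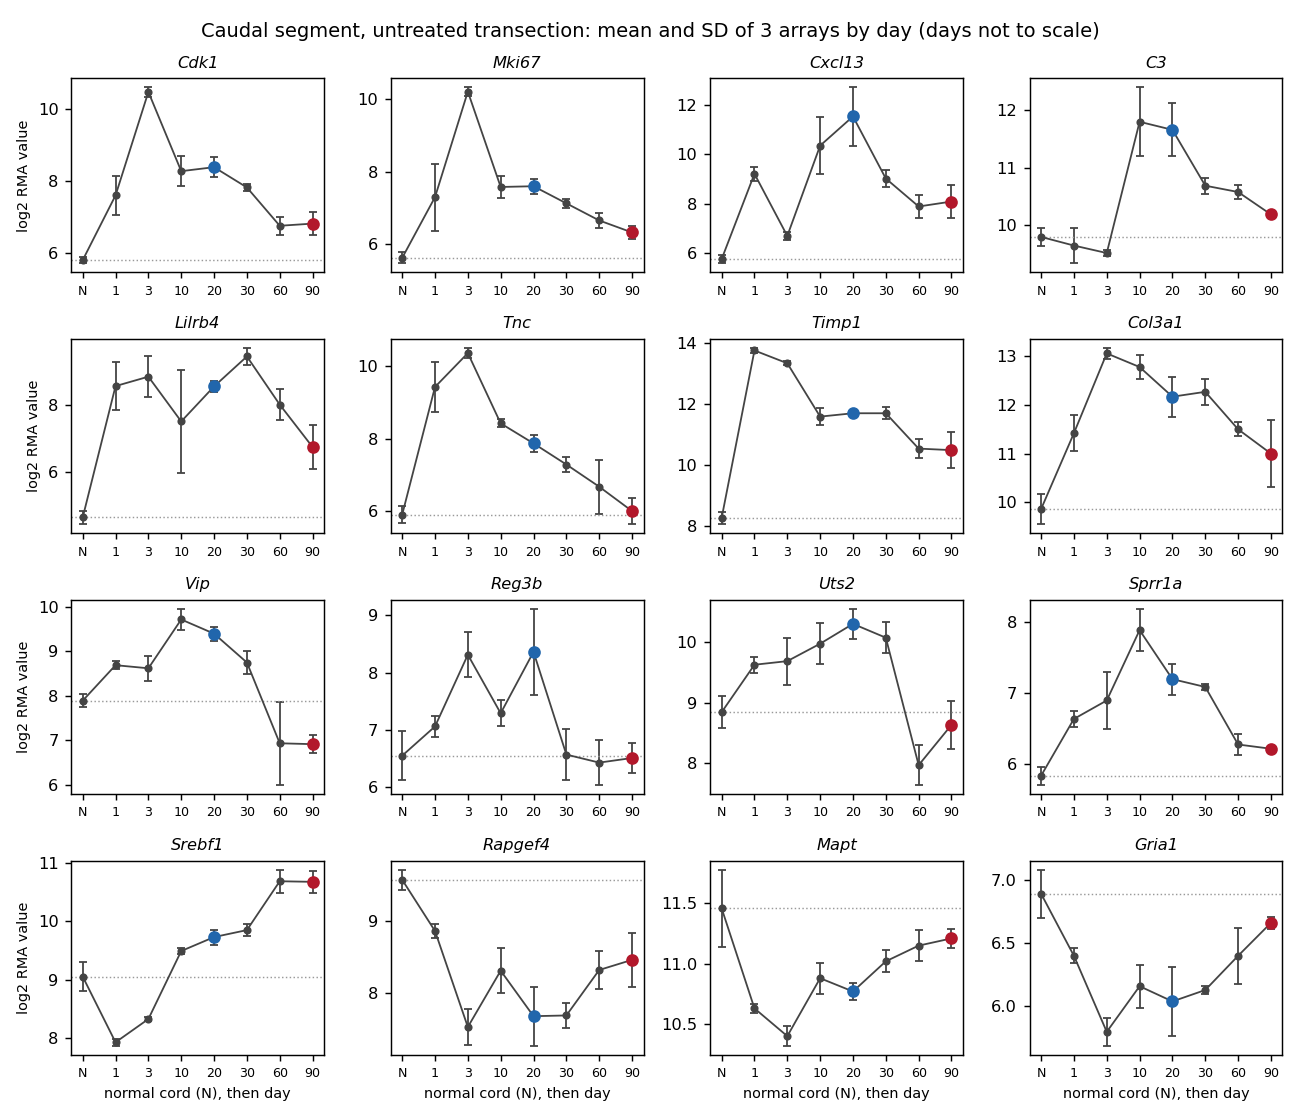
Mean and SD of 3 arrays (log2 RMA value, y axis) in normal cord (N, dotted line) and at days 1 to 90 after transection, caudal block, lesion control, with day 90 in red and day 20 in blue; the days are not spaced to scale. Cdk1 and Mki67 peak at day 3, Cxcl13 is highest at day 20 and Srebf1 climbs to 10.69 at day 60, while Mapt and Gria1 are lowest at day 3.

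The same genes were followed in other groups of the series. The rostral arrays took no part in the calls; the arrays of the tube arms did not enter the difference between the days but were in the same fit, where they counted towards its estimate of the spread and its filter on dim genes. In the block rostral to the gap of the same arm, which may come from the same animals, 378 of the 382 fallen genes had the same sign. Of these 382, 320 (83.8%) passed the same way, against 23% of all genes. Of the 135 that rose, 129 had the same sign and 87 (64.4%) passed, against 8.6% of all genes. In the caudal block of rats given a chitosan tube with neurotrophin-3 (NT-3), 371 of 382 had the same sign and 233 (61%) passed, against 12.8%, and 132 of 135 had the same sign with 82 (60.7%) passing, against 7.44%. With an empty tube 358 and 111 had the same sign and 107 (28%) and 15 (11.1%) passed, against 2.67% and 0.61%. By sign alone 60.3% of all genes were lower at day 90 rostrally, 54.3% with the NT-3 tube and 53.4% with the empty tube. The shares that were higher were 39.5%, 45.5% and 46.1%. None of the 517 genes passed in the opposite direction in any of these 3 sets. Cdk1 differed by -1.84 rostrally, by -1.42 with the NT-3 tube and by -1.35 with the empty tube, and Srebf1 by 1.21, 0.88 and 0.83; all of these passed.

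Tests of the difference between changes found few genes. Between the caudal and the rostral change 1 of 11590 genes passed (0.00863%): Ccl17, a chemokine for T cells, differed by -0.46 caudally (adjusted p = 0.164) and by -1.78 rostrally, a difference of 1.31 ± 0.26 (adjusted p = 0.0253). The count was 0 without rostral day 90 replicate 1 or 3, rostral day 20 replicate 2, caudal day 90 replicate 1 or 3, or caudal day 20 replicate 2 or 3, it was 3 without rostral day 20 replicate 1, and it was 2 without rostral day 90 replicate 2. Between lesion control and NT-3 tube 4 of 11479 passed (0.0348%), namely RT1-CE10, RT1-CE12, RT1-CE16 and Fubp3, none of which passed between the days in the lesion control arm itself; without NT-3 tube day 20 replicate 3, 9 passed. Against the empty tube none passed with limma, with 638 genes at an unadjusted p under 0.05, and 1 passed without lesion control day 20 replicate 2. Cxcl13 differed by -1.86 rostrally, -1.65 with the NT-3 tube and -0.10 with the empty tube, and the difference from the last, -3.33 ± 0.72, did not pass (adjusted p = 0.224). Vip differed by -1.38, -1.92 and -2.86 in the same order. Reg3b differed by -2.16 rostrally, but by -0.67 and -0.11 in the tube arms, and neither of these 2 passed; its difference from the empty tube was -1.74 ± 0.43 (adjusted p = 0.25).

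**Figure D4:**
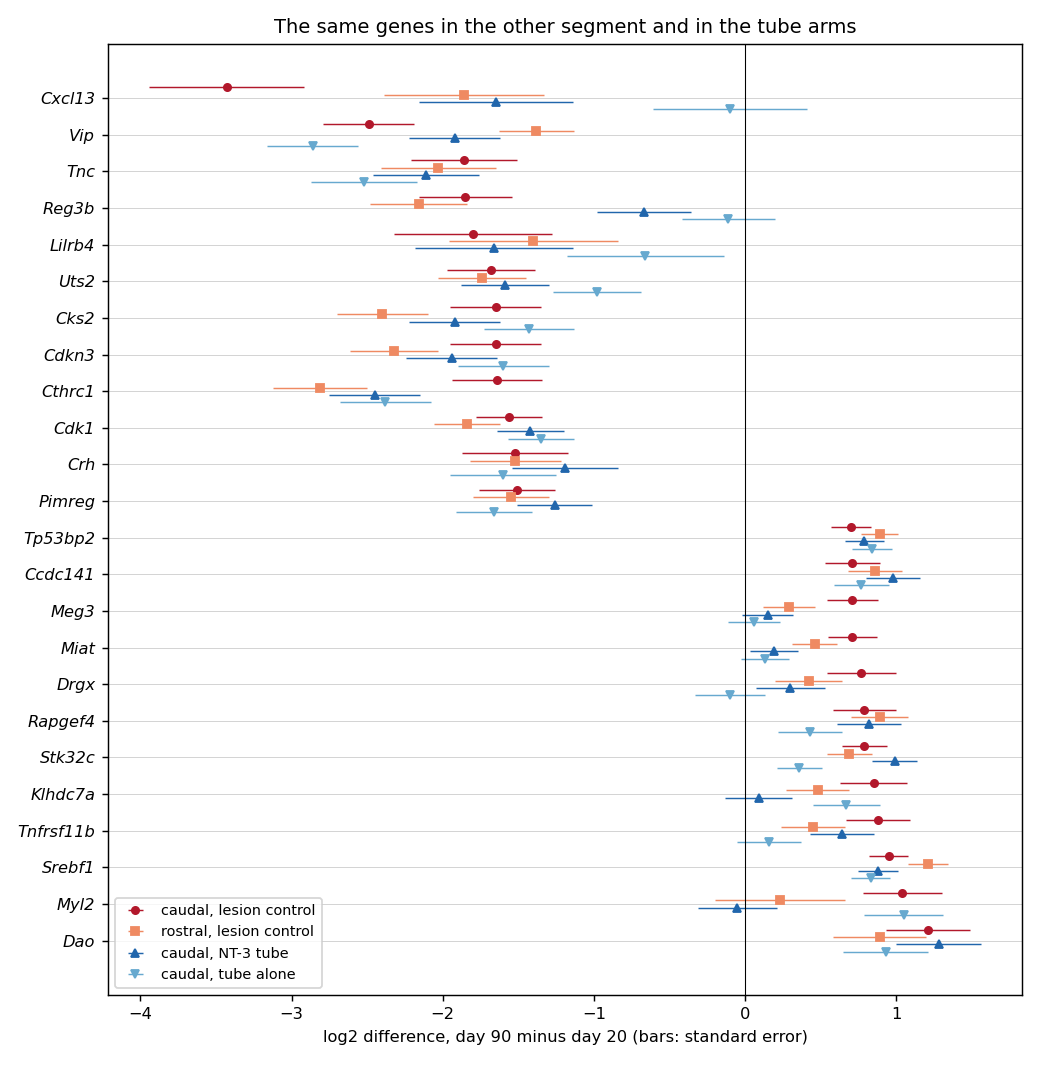
Log2 difference, day 90 minus day 20 (x axis, bars are standard errors), of the 12 largest falls and 12 largest rises in the caudal block of the lesion control arm (red), its rostral block (orange), and the caudal blocks with NT-3 tube and with empty tube (blue shades). Cdk1, Tnc and Pimreg lie left of -1 in all 4 sets, while Cxcl13 and Reg3b lie near 0 with the empty tube.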

How the data were processed

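RNA was hybridised to Affymetrix Rat Genome arrays, 1 pool of 4 animals per array for injured cord, per the labels' protocols. What the authors deposited are log2 values from RMA in Affymetrix Expression Console, per the submitters' processing notes, for 31099 probe sets. No version of either is given in the sources used here. RMA equalises the arrays and compresses low signals, so a shift of all genes in one array would not be seen. Array medians were 7.10 to 7.25, and the values were used as deposited.

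Probe sets with 1 gene symbol in the platform annotation (20832; 436 have several and 9831 are not named here) gave 14218 genes, each represented by its brightest probe set. Genes were tested where a group mean reached the 40th percentile of all values (6.55). limma 3.58.1 (R 4.3.3; lmFit with 1 mean per group over 66 caudal and normal cord arrays, eBayes, Benjamini-Hochberg over all genes, threshold 0.05) compared the days. Tests of the difference between segments used the rostral and caudal arrays together (11590 genes). The method was checked on simulated data. P-values measure the spread between pools. The pairs of arrays with the same replicate number, taken from the titles, had deviations from their group means that correlated at 0.159, 0.254 and 0.197, so a fit with the number as a block was made as an alternative.

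The 49 gene lists (924 entries, 824 matched), the arrays compared and the genes named were chosen with earlier results of these data known. Genes to name were chosen by a rule: the 12 strongest rises and 12 strongest falls among called genes without overlap between days, from every list up to 4 called members by size of change and its 2 brightest members, and all class I genes. Of the bright members without a call only some are given. Further members of the cell cycle, chemokine, axon injury and replication groups were chosen after their values were seen. The other alternatives dropped the dim filter or used a second quantile normalization, a robust prior with trend, array weights, only the arrays of the contrast, the mean of a gene's probe sets, or left out each array in turn. Promoter sequences are from RefSeq (GRCr8).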

Additional observations from a re-analysis of the deposited data

Results flagged for a closer look

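In 5 genes the change between day 90 and day 20 differed between groups by a test of the difference itself. For Ccl17 the caudal minus the rostral change of the lesion control arm was 1.31: the caudal block had 6.57, 6.28 and 6.67 at day 90 and 7.19, 6.94 and 6.78 at day 20, and the rostral block 6.08, 6.62 and 6.46 at day 90 and 7.96, 8.54 and 7.99 at day 20. The rostral arrays of day 20 lay above all the others, and those of day 90 overlapped the caudal arrays of day 90.

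In the caudal block the lesion control minus the NT-3 tube change was -3.53 for RT1-CE10, -2.10 for RT1-CE16, -1.27 for RT1-CE12 and -0.67 for Fubp3. The first 3 are class I histocompatibility genes. RT1-CE10 had 7.09, 7.03 and 7.16 at day 90 and 7.22, 7.04 and 6.96 at day 20 in lesion control cord, and 11.42, 10.17 and 11.13 at day 90 and 7.10, 7.57 and 7.40 at day 20 with the NT-3 tube. It was also high, at 11.04, 11.12 and 11.09, in the lesion control arrays of day 30. Fubp3, which binds single-stranded DNA, showed the same arrays high: 11.20, 11.31 and 11.03 at day 90 with the NT-3 tube and 10.99, 11.10 and 10.93 at day 30 in lesion control cord, against 10.42, 10.42 and 10.54 at day 90 and 10.38, 10.29 and 10.40 at day 20 in lesion control cord. Which animals make up each pool is not given in the sources used here.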

How the results depend on the processing

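For the 135 rises and 382 falls, a 2-fold minimum left 2 and 45, array weights, whose estimation stopped before it converged, gave 1418 and 1842, and only the arrays of the contrast gave 69 and 215. Leaving out 1 array gave 15 to 120 rises and 84 to 372 falls. The same-numbered arrays taken as pairs (replicate block) gave 134 and 397, and changed no call of a named gene except those of Aif1 and Scd; with only the 6 arrays and the block, chosen after seeing the data, the counts were 74 and 238. Fitting only caudal lesion control and normal cord arrays, also chosen afterwards, gave 194 and 507. No filter gave 137 and 444. Other probe sets of Mapt (0.31 and 0.31), Gfra1 (-0.34), Plin2 (-0.36), Pdk4 (-0.38) and Lox (-0.98) did not pass, while that of Meg3 (0.69) did. Of 73 called named genes 22 passed in all alternatives that could test them and 51 missed in at least 1; none changed sign past the threshold. The test of the difference between segments (1 gene) gave 9 without a filter, 2 after a second quantile normalization, 1984 with array weights, 0 with only the arrays of the contrast and 0 to 3 with 1 array left out. That against the NT-3 tube (4 genes) gave 193 with array weights, 2 with only the arrays of the contrast and 3 to 9 with 1 array left out. That against the empty tube (0 genes) gave 908 with array weights and 0 to 1 with 1 array left out. Only 3 arrays a group and the filter on dim genes at 6.55 limit what could be called. The filter asked this of 1 group of the fit, not of the days compared. Of the 382 falls 38, and of the 135 rises 3, had both day means below 6.55.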

Other observations

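Further falls came from lists the text has not described. Of 17 lysosomal genes Grn, the lysosomal growth factor progranulin, had 12.26, 11.84 and 12.32 at day 90 and 12.69, 12.51 and 12.62 at day 20 (-0.47 ± 0.12, adjusted p = 0.0198), and Ctsh, cathepsin H, fell by 0.27, while the brighter Ctsb, cathepsin B, averaged 13.96 ± 0.10 at day 90 and 13.89 ± 0.07 at day 20. The list's median was -0.06, and neither call held without day 90 replicate 2 or day 20 replicate 1 or 3. Plin2, which coats lipid droplets, had 11.32, 10.93 and 11.40 at day 90 and 11.91, 11.73 and 11.90 at day 20, against 9.54 in normal cord (-0.63 ± 0.15, adjusted p = 0.00907), the 1 call of 16 genes of lipid efflux and droplets. Pdk4, a kinase that slows glucose oxidation and responds to glucocorticoids, fell by 0.64 (adjusted p = 0.0302) with 10 of 12 genes of its list lower and no other call. Mia, a secreted protein best known from cartilage and melanoma, fell by 0.65 as the 1 call of 7 genes of ependyma and cilia. Drgx, a homeobox factor of dorsal horn neurons, had 6.22, 6.30 and 6.70 at day 90 and 5.71, 5.78 and 5.41 at day 20, against 6.57 on average in normal cord (0.77 ± 0.23, adjusted p = 0.0387). Plin2, Pdk4, Mia and Drgx lost their calls without day 90 replicate 2, among other arrays.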
